A study of Mus musculus with 61 samples.

Results

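The genes described here are the mouse genes whose symbol is Zfp followed by a number of 3 digits that begins with 9 (Zfp900 to Zfp999), with no letter after it. The symbol alone chose them, with no regard to position, domain or level. They filled 61 of the 24551 gene rows counted in the oocyte and embryo windows and 59 of the 22911 gene rows counted in the Klf17 genotypes. The 61 rows carry 60 symbols, because Zfp935 is listed under 2 gene identifiers. Zfp968 and Zfp973 were listed in the window table and not in the genotype table.

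Mouse MII oocytes and preimplantation embryos made by in vitro fertilisation were labelled with 2 mM 4-thiouridine (4SU), a uridine analogue that enters RNA as it is made. After 6 h their RNA was alkylated, which marks the labelled bases for SLAM-seq, and polyadenylated RNA was sequenced by a modified Smart-seq2 protocol. The window experiment has 30 libraries of wild-type (WT) material, 3 for MII oocytes and 3 for each labelling window of 0-6, 6-12, 12-18, 18-24, 24-30, 30-36, 48-54, 70-76 and 90-96 h post insemination (hpi). The genotype experiment has 11 libraries of embryos at the stage labelled M2C, 3 labelled Klf17 KO, 3 labelled Klf17 maternal KO (mKO), 2 labelled Klf17 paternal KO (pKO) and 3 controls labelled WT (ctrl). All 41 libraries, the oocytes and controls included, were from 4SU-labelled material. Libraries of the 9 embryo windows were made from 10 embryos each, and the number in the MII and genotype libraries is not given in the sources used here. The sources used here do not state whether replicates came from separate collections, so that p-values reflect only how far these libraries differed.

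Zinc finger genes with these symbols largely belong to a family that expanded in rodents, and many of their proteins carry a KRAB domain beside an array of C2H2 fingers. The fingers bind a DNA sequence, often inside a transposable element, and the KRAB domain binds TRIM28, a scaffold that brings SETDB1 and other silencing enzymes to the site. Many of the genes lie in clusters of near copies on a few chromosomes, and many are expressed in oocytes, early embryos and embryonic stem cells, where the proteins are known for repressing endogenous retroviruses.

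Promoter windows of 4 members from the chromosome 4 cluster are printed first, because these windows are near copies while the genes' courses are not all alike: Zfp979, Zfp980 and Zfp982 were highest at 18-24hpi and Zfp985 at 70-76hpi. Each window runs from 250 bases before to 50 bases after a RefSeq transcript start (GRCm38.p6), in the direction of the gene. Capitals mark 3 motifs on either strand. The first is CCAAT, which reads ATTGG on the other strand. The second is GGGCGG, which there reads as CCGCCC, and the third is TAATCC, which there reads as GGATTA.
Zfp979 (chr4:147642459-147642758, minus strand): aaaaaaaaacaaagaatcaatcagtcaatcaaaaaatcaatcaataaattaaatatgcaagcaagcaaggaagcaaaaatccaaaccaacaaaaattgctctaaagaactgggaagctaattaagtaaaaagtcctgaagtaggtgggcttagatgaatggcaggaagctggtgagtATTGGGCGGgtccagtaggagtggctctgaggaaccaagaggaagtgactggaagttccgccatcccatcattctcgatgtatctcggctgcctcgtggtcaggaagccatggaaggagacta
Zfp980 (chr4:145670447-145670746, plus strand): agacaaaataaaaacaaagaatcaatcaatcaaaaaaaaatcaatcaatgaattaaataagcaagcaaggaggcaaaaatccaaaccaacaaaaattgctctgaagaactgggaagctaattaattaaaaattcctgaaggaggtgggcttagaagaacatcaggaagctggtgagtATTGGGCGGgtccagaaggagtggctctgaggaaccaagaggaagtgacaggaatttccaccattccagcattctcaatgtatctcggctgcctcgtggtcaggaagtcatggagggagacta
Zfp982 (chr4:147492167-147492466, plus strand): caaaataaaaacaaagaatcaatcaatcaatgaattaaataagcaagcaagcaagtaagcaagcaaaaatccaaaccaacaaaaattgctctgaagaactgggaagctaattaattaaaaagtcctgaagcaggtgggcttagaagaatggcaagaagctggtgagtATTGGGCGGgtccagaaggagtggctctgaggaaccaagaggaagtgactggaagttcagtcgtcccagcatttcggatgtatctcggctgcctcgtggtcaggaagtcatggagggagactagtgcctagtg
Zfp985 (chr4:147553027-147553326, plus strand): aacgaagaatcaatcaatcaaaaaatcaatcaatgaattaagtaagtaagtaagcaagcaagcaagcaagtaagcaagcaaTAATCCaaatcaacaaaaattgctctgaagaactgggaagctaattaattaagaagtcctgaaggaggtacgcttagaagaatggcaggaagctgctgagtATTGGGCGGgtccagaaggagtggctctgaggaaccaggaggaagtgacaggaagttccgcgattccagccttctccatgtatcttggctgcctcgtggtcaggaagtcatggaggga
All 4 of these windows hold the run ATTGGGCGG, in which ATTGG and GGGCGG share 2 bases, and the window of Zfp985 also holds TAATCC. RefSeq gives Zfp982 3 starts, and the window shown was chosen because it matches the others. Of its other windows, the one at the first base of the gene lacks this run and holds CCAAT, and the last holds none of the motifs searched. By global alignment, the windows of Zfp980 and Zfp979 were 89.8% identical, those of Zfp982 and Zfp985 were 82.6% identical, and those of Zfp985 and Zfp979 were 82.3% identical.

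A pair on chromosome 7 is shown because Zfp977 and Zfp936 have windows that are 89.8% identical and only Zfp977 passed the test between the Klf17 KO and control libraries. The mean of Zfp936 was lower in KO as well, at 297 CPM against 405 CPM in the controls, and no test compared the 2 genes.
Zfp977 (chr7:42592496-42592795, minus strand): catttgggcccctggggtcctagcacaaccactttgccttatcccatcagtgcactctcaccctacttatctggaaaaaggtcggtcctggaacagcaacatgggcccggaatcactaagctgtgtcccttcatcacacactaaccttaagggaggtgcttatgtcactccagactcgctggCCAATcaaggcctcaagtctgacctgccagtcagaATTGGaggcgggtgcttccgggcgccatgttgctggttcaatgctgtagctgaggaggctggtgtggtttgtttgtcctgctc
Zfp936 (chr7:43177340-43177639, plus strand): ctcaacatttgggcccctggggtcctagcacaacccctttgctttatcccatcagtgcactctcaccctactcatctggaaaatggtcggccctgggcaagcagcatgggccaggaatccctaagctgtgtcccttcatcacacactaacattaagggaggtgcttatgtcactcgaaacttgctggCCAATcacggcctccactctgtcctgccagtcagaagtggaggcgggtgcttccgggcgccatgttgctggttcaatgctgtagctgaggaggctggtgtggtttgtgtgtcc
Zfp977 holds CCAAT in both orientations, and Zfp936 holds it once.

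Zfp942 and Zfp943 on chromosome 17 are shown because they start head to head, so that their windows overlap on opposite strands, and both reached their highest level or close to it in the 18-24hpi window.
Zfp942 (chr17:21962415-21962714, minus strand): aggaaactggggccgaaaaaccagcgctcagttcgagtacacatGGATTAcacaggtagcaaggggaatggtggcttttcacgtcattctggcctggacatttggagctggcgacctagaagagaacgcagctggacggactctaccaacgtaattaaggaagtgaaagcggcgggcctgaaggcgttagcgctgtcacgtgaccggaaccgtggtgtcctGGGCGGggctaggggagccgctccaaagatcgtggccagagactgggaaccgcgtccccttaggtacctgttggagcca
Zfp943 (chr17:21962309-21962608, plus strand): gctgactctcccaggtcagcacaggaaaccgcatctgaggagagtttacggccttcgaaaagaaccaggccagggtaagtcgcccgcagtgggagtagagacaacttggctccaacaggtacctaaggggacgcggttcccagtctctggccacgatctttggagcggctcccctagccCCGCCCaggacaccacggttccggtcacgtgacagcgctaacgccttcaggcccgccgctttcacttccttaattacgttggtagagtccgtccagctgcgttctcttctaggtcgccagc
Both windows hold GGGCGG or its reverse, neither holds CCAAT, and that of Zfp942 also holds GGATTA.

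RefSeq held promoter windows for 51 of the 60 symbols, 58 windows in all because some genes have several starts. CCAAT, the box bound by NF-Y, occurred on either strand in 44 of these 58 windows (75.9%), against 42.3% of 307 windows of Zfp genes numbered below 900 and 37.4% of 32851 windows of all genes. GGGCGG, the GC box, occurred in 32.8% of the members' windows, 46.3% of those of the lower-numbered Zfp genes and 35.7% of all windows. CCACCC, the core bound by KLF factors, occurred in 25.9% of the members' windows, 33.2% of those of the lower-numbered Zfp genes and 31.5% of all windows. TAATCC occurred in 10.3%, 6.84% and 7.06% of the windows of members, lower-numbered Zfp genes and all genes, and AAGGTCA occurred in 1.72%, 3.26% and 4.72% of them. The windows are near copies within clusters and are not independent of each other, so these shares are a description. Median GC content was 49.7% in the members' windows, 55.7% in those of the lower-numbered Zfp genes and 52.7% in all windows.

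Window libraries held 7395193 to 13301570 reads over genes and genotype libraries 14080264 to 23018252. Log levels of replicates correlated at 0.976 to 0.993 in the windows and at 0.913 to 0.980 in the genotypes, and no pair of replicates matched within sampling noise. In the genotypes, mKO replicates 1 and 2 were the least alike. Summed oocyte markers stood at 8385 to 8762 CPM (reads of a gene scaled to the library total) in MII oocytes, and 5 of the 7 cumulus cell markers were at 0 there. The cumulus cell markers still summed to 135 to 152 CPM in MII oocytes, the highest range of the 10 groups, against 3.81 to 6.09 CPM at 90-96hpi. The summed list of genes known for the 2-cell stage was highest at 18-24hpi, at 1395 to 1694 CPM. Levels are shares of a library, so fewer embryonic cells of a type and less RNA per cell cannot be told apart, and whether reads without a label were counted is not given in the sources used here.

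The set was expressed throughout, and 1 gene carried a large part of it. The members' summed level was 3921 ± 399 CPM in MII oocytes (SD, n = 3), lay at 3141 ± 111 CPM at 0-6hpi, stood highest at 18-24hpi with 4754 ± 239 CPM, and was lowest at 90-96hpi with 1089 ± 53.2 CPM. Zfp979 alone made up 24.3% of that sum in MII oocytes, 31.5% at 18-24hpi and 8.14% at 90-96hpi. The number of members with a mean of at least 100 CPM was 7 in MII oocytes, 15 at 18-24hpi and 0 at 90-96hpi. The median member stood at 9.498 CPM in the MII oocytes, 19.3 CPM at 18-24hpi and 15.6 CPM at 90-96hpi. So the loss in the sum lay in its high members, while the middle of the set stayed above its oocyte level.

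The 8 members with the highest mean over all window libraries were Zfp979, Zfp961, Zfp942, Zfp936, Zfp951, Zfp957, Zfp982 and Zfp980. Per kilobase of gene length, Zfp979 stood first of all members at 264 CPM per kb over all windows, ahead of Zfp982 at 97.2, Zfp961 at 76.0, Zfp978 at 66.4 and Zfp942 at 58.6 CPM per kb. Zfp979 (chromosome 4, 147611936 to 147642508, minus strand, GRCm38.p6) was at 760, 964 and 1130.1 CPM in the MII oocytes, 677, 759 and 670.2 CPM at 0-6hpi, 783, 721 and 666 CPM at 6-12hpi, and 911, 1016 and 1009 CPM at 12-18hpi. It was at 1422, 1606 and 1458 CPM at 18-24hpi, 892, 1088 and 918 CPM at 24-30hpi, 449, 499.7 and 456 CPM at 30-36hpi, 335, 328 and 299 CPM at 48-54hpi, 116, 176 and 168 CPM at 70-76hpi, and 77.7, 91.1 and 97.5 CPM at 90-96hpi. The 18-24hpi libraries lay above all others, and from 24-30hpi on each window lay below the one before it with no overlap.

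Zfp982 and Zfp980, both in the chromosome 4 cluster, had a course of that form at lower levels. Zfp982 (147443114 to 147516064, plus strand) was at 223, 246 and 272 CPM in the MII oocytes, 126, 147 and 147 CPM at 0-6hpi, 326, 331 and 282 CPM at 18-24hpi, 129, 126 and 116 CPM at 30-36hpi, and 8.43, 7.39 and 11.5 CPM at 48-54hpi. The drop after 30-36hpi was wider for Zfp982 than for the other 7 genes named here, apart from Zfp957. Zfp980 was at 190, 252 and 205 CPM in the MII oocytes, 224, 238 and 246 CPM at 18-24hpi and 17.1, 15.2 and 16.1 CPM at 90-96hpi. Over the 10 group means on a log2 scale, the course most like that of Zfp979 was that of Zfp944 on chromosome 17 (r = 0.99), followed by Zfp980 (r = 0.98). These correlations describe 10 groups whose means share libraries and total reads.

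The other high members differed in when their level was highest and when it dropped. Zfp957 (chromosome 14, 79212355 to 79247367, minus strand) was at 460, 453 and 438 CPM in the MII oocytes, 159, 130.2 and 201 CPM at 12-18hpi, 32.5, 48.8 and 42.0 CPM at 24-30hpi, and 0.562, 0.208 and 0.893 CPM at 48-54hpi. It stayed under 2 CPM in every later library. Zfp961 was flat at 292 to 405 CPM in all libraries of MII oocytes to 12-18hpi, and lay at 204, 205 and 205 CPM at 18-24hpi and 44.1, 49.9 and 46.2 CPM at 90-96hpi. Zfp951 was low in MII oocytes at 103, 72.7 and 93.5 CPM, highest at 12-18hpi at 272, 327 and 365 CPM, and at 30.9, 31.1 and 39.2 CPM at 90-96hpi. Zfp936 was highest later, being at 87.8, 89.6 and 112 CPM in the MII oocytes, 163, 180.4 and 209.9 CPM at 12-18hpi, and 349, 336 and 353 CPM at 30-36hpi, its highest window. Zfp942 was at 336, 417 and 431 CPM in the MII oocytes, 374, 354 and 303 CPM at 18-24hpi and 9.75, 23.6 and 23.8 CPM at 90-96hpi, and its MII and 18-24hpi libraries overlapped.

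**Figure D1:**
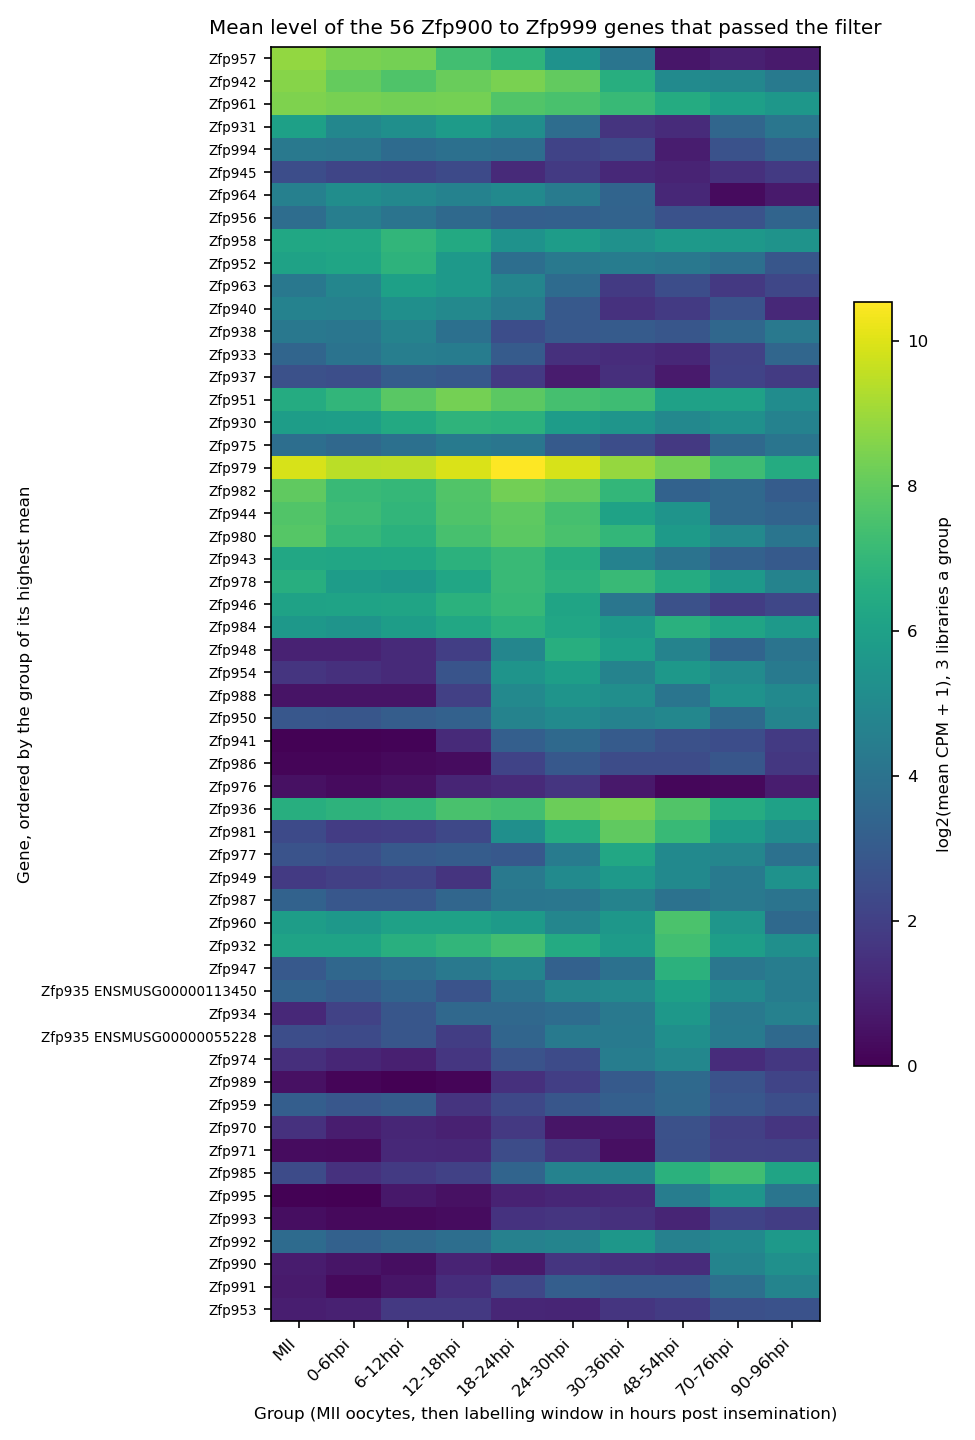
Mean level of the 56 tested members in the 10 groups, as log2 of mean CPM plus 1 (colour), with genes in rows ordered by the group of their highest mean and groups in columns in time order. The row of Zfp979 is the highest of the 56 in every group but 70-76hpi, where Zfp985 is, and the groups of highest mean spread over all 10 columns, with 11 members at 48-54hpi and 2 at 0-6hpi.

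Of the 56 members tested, 18 had their highest mean in MII oocytes to 12-18hpi, 20 in 18-24hpi to 30-36hpi and 18 in 48-54hpi to 90-96hpi. By group, the highest mean fell in MII oocytes for 6 members (10.7%, against 13.8% of all tested genes), at 6-12hpi for 7 (12.5%, against 5.43%), at 18-24hpi for 8 (14.3%, against 8.64%), at 24-30hpi for 7 (12.5%, against 6.20%) and at 48-54hpi for 11 (19.6%, against 12.6%). At 90-96hpi it was 4 members (7.14%, against 17.8%). These shares were not tested. The other 5 rows, Zfp983, Zfp972, Zfp965, Zfp973 and Zfp968, were below the filter on low counts, with 96, 49, 7, 4 and 1 reads over all 30 libraries, and no member was without a read. Differences among the 10 groups were called for 56 of the 56 tested members by edgeR's quasi-likelihood test at a Benjamini-Hochberg adjusted p below 0.05, as for 98.4% of all 16234 tested genes. A member passed the filter only through groups where it is expressed, so this count describes the tested rows.

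**Figure D2:**
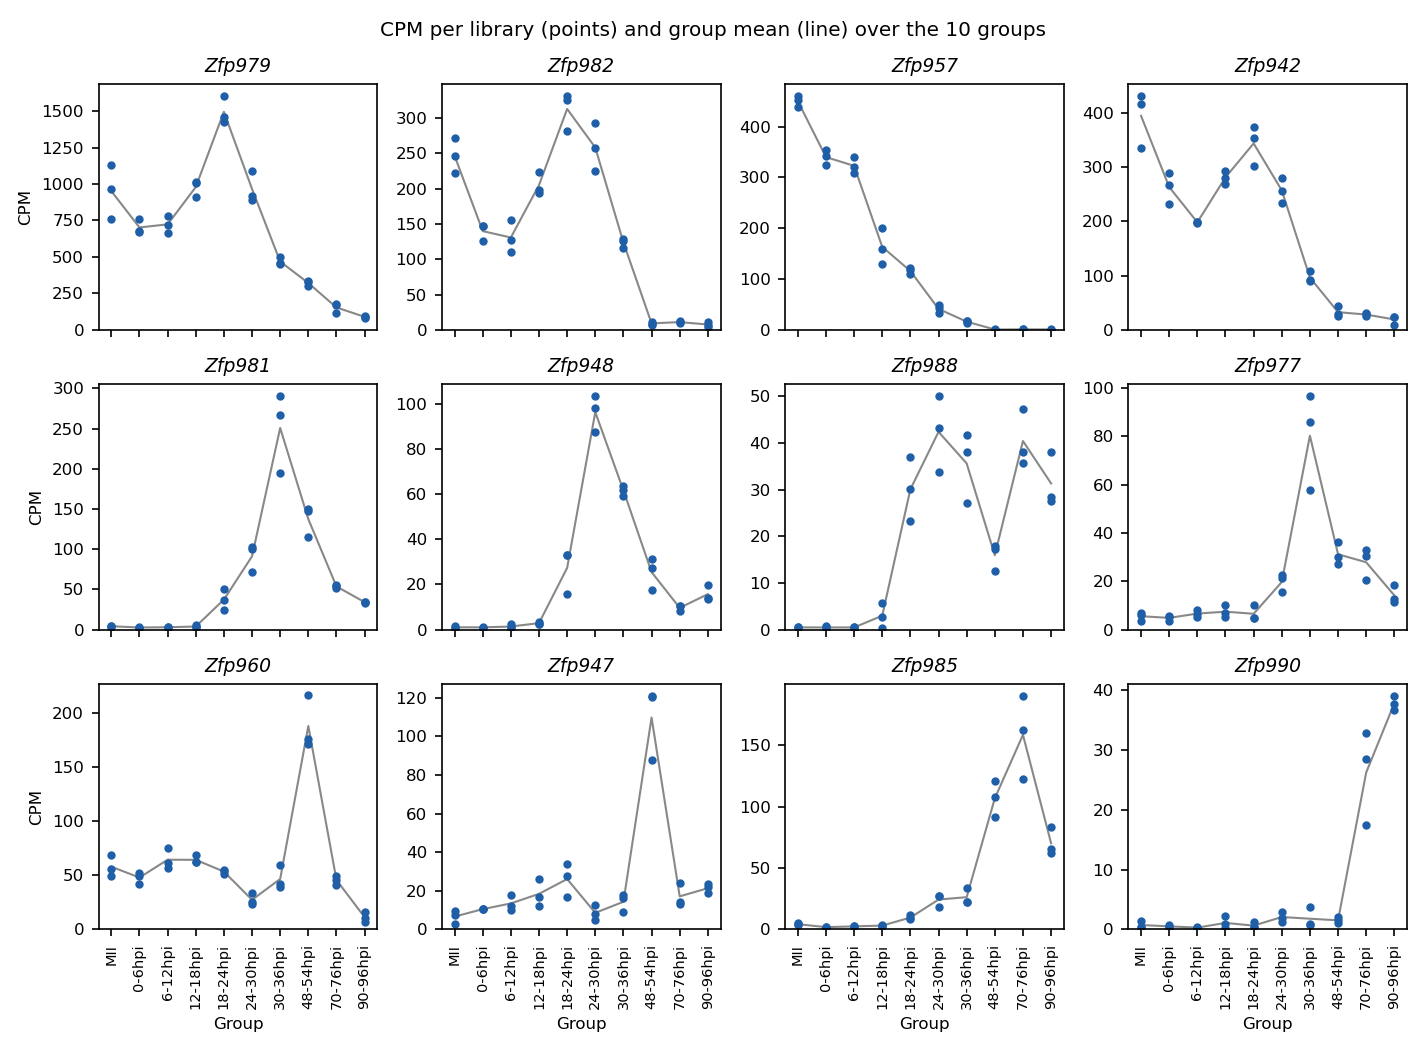
CPM of 12 members in each window library (points) and the group mean (line), with groups on the horizontal axis in time order. Zfp979, Zfp982, Zfp957 and Zfp942 are high in MII oocytes and low at the end, Zfp981, Zfp948 and Zfp988 leave the floor at 18-24hpi, Zfp977 has a single high window at 30-36hpi, Zfp960 and Zfp947 at 48-54hpi, and Zfp985 and Zfp990 are high at 70-76hpi.

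Few members moved in the first steps after MII. At 0-6hpi, 2 members rose and 7 fell relative to MII oocytes, that is 16.1% of the 56, and 21.2% of all tested genes were called in this step. Risers were 3.57% of the members, against 12.9% of all tested genes, and fallers 12.5%, against 8.28%. Zfp982 fell to 140.0 ± 12.3 CPM at 0-6hpi, against 247 ± 24.5 CPM in MII oocytes (log2 fold change, or log2 change, −0.82, standard error, SE, 0.17, adjusted p = 0.000397 by edgeR). Zfp980 fell by 0.74 on the log2 scale (SE 0.15, adjusted p = 0.000319), Zfp978 by 0.80 (SE 0.17, adjusted p = 0.000498) and Zfp931 by 1.13 (SE 0.33, adjusted p = 0.0112). The risers were Zfp951, at 122 ± 8.27 CPM against 89.6 ± 15.3 CPM (log2 change 0.45, SE 0.16, adjusted p = 0.0459), and Zfp934, which lay below 5 CPM in all 6 libraries and was named after its values were seen. Under other scalings the split of risers and fallers was 1 and 8 with DESeq2's size factors and 4 and 5 with total counts.

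At 6-12hpi, 5 members rose and 0 fell relative to 0-6hpi (8.93% of members called, against 7.66% of all tested genes, of which 4.73% rose and 2.93% fell). Zfp951 rose to 237, 224 and 235 CPM at 6-12hpi, against 128, 125 and 113 CPM at 0-6hpi (log2 change 0.93, SE 0.16, adjusted p = 0.000110). Zfp958, Zfp932 and Zfp930 rose by 0.63 (adjusted p = 0.0330), 0.54 (adjusted p = 0.0496) and 0.50 (adjusted p = 0.0467) on the log2 scale. Zfp932 is known for binding and repressing endogenous retroviruses in mouse embryonic stem cells. The fifth, Zfp995, had 10, 0 and 8 reads at 6-12hpi and 0 reads in all 3 libraries at 0-6hpi, so no fold is given, and it was named after its values were seen. At an unadjusted p below 0.05, 14 members differed in this step, and DESeq2 called 8 that rose and 0 that fell. Over all 16234 tested genes, 2915 differed at an unadjusted p below 0.05 and DESeq2 called 1751. Without any 1 of the 6 libraries, 1 or 2 members were called.

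At 12-18hpi, 13 members rose and 3 fell relative to 6-12hpi (28.6%, against 13.2% of all tested genes). Risers made up 23.2% of the members, against 7.11% of all tested genes, and fallers 5.36%, against 6.09%. Zfp980 rose to 149.6, 202 and 184 CPM at 12-18hpi, against 108, 111 and 101 CPM at 6-12hpi (log2 change 0.75, SE 0.15, adjusted p = 0.000589). Zfp982 rose by 0.65 (SE 0.17, adjusted p = 0.00751) and Zfp936 by 0.55 (SE 0.14, adjusted p = 0.00543) on the log2 scale, and Zfp954 rose to 5.63 ± 1.86 CPM, against 1.40 ± 0.620 CPM (adjusted p = 0.00150). Zfp952 fell to 48.6, 39.7 and 60.1 CPM, against 117, 114 and 107 CPM at 6-12hpi (log2 change −1.19, SE 0.25, adjusted p = 0.00102). Zfp957 fell to 163 ± 35.4 CPM, against 323 ± 16.0 CPM (log2 change −0.98, SE 0.23, adjusted p = 0.00380), and Zfp959 fell by 1.86 on the log2 scale at low levels (adjusted p = 0.00708). The count of 16 depended on single libraries. It was 10, 10 and 8 without 6-12hpi replicates 1, 2 and 3, and 12, 5 and 9 without 12-18hpi replicates 1, 2 and 3. With total counts as the scaling, 9 rose and 6 fell.

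The 18-24hpi window brought more risers than any of the other 8 steps. Relative to 12-18hpi, 21 members rose and 6 fell (48.2%, against 33% of all tested genes). Risers were 37.5% of the members, against 18.1% of all tested genes and 21.4% of the 280 Zfp genes numbered below 900. Fallers were 10.7% of the members and 14.9% of all tested genes. Several left a level near the floor. Zfp981 was at 37.2, 50.0 and 24.6 CPM at 18-24hpi, against 3.25, 5.13 and 3.16 CPM at 12-18hpi (log2 change 3.28, SE 0.24, adjusted p = 4.95e-13). Zfp948 was at 33.1, 33.2 and 15.6 CPM, against 2.41, 3.58 and 2.62 CPM (log2 change 3.25, SE 0.33, adjusted p = 5.35e-10). Zfp949 was at 22.6, 19.02 and 12.8 CPM, against 3.73, 0.477 and 1.85 CPM (log2 change 3.16, SE 0.36, adjusted p = 6.15e-09). Zfp988 was at 30.1, 23.3 and 36.9 CPM, against 2.77, 5.73 and 0.436 CPM (log2 change 3.35, SE 0.40, adjusted p = 2.68e-08). In each of these 4 genes the libraries of the later window all lay above those of the earlier one.

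The members that fell at 18-24hpi had been present since the oocyte. Zfp952 fell to 16.1, 13.6 and 9.13 CPM at 18-24hpi, against 48.6, 39.7 and 60.1 CPM at 12-18hpi (log2 change −1.93, SE 0.27, adjusted p = 4.08e-07). Zfp958 fell by 1.06 (SE 0.20, adjusted p = 5.02e-05), Zfp961 by 0.68 (SE 0.13, adjusted p = 6.29e-05) and Zfp938 by 1.57 (SE 0.41, adjusted p = 0.00257) on the log2 scale. Zfp952 thus fell at both 12-18hpi and 18-24hpi, after standing at 63.7 to 73.9 CPM in MII oocytes.

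At 24-30hpi the balance turned, with 10 members that rose and 20 that fell relative to 18-24hpi (53.6%, against 45.4% of all tested genes). Fallers were 35.7% of the members and 24.4% of all tested genes, and risers 17.9% and 21%. The direction of this balance depended on the scaling, since total counts gave 16 risers and 11 fallers and moved the median log2 change of all genes to 0.28, against −0.12 with TMM. Zfp948 rose to 87.3, 98.04 and 103 CPM at 24-30hpi, against 33.1, 33.2 and 15.6 CPM at 18-24hpi (log2 change 1.82, SE 0.28, adjusted p = 1.65e-06). Zfp981 rose to 71.2, 103 and 99.8 CPM (log2 change 1.29, SE 0.20, adjusted p = 2.08e-06), and Zfp936 to 239.8, 293 and 338 CPM, against 138, 189.7 and 158 CPM (log2 change 0.84, SE 0.14, adjusted p = 5.05e-06). Zfp985 rose by 1.33 (SE 0.23, adjusted p = 9.34e-06). Zfp957 fell by 1.49 (SE 0.24, adjusted p = 7.55e-06), Zfp930 by 0.94 (SE 0.16, adjusted p = 9.50e-06), Zfp932 by 0.91 (SE 0.17, adjusted p = 4.45e-05) and Zfp960 by 0.96 (SE 0.20, adjusted p = 0.000179) on the log2 scale. These 8 genes kept their calls with total counts.

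At 30-36hpi, 6 members rose and 19 fell relative to 24-30hpi (44.6%, against 49.9% of all tested genes), and with DESeq2's size factors 10 rose and 17 fell. Risers were 10.7% of the members, against 21% of all tested genes, and fallers 33.9%, against 29%. Zfp977 (chromosome 7, 42579397 to 42592545, minus strand) had its one high window here. It was at 57.8, 96.8 and 86.0 CPM at 30-36hpi, against 22.4, 15.3 and 21.3 CPM at 24-30hpi (log2 change 2.03, SE 0.30, adjusted p = 9.11e-07), and stood at 27.3, 30.0 and 36.3 CPM at 48-54hpi. Zfp981 reached its highest level, 267, 291 and 195 CPM, against 71.2, 103 and 99.8 CPM (log2 change 1.46, SE 0.20, adjusted p = 1.30e-07). Zfp974 and Zfp960 rose by 2.30 (SE 0.52, adjusted p = 0.000389) and 0.77 (SE 0.20, adjusted p = 0.00187) on the log2 scale. The neighbours Zfp942 and Zfp943 fell together. Zfp943 was at 23.7, 27.9 and 23.2 CPM at 30-36hpi, against 86.2, 99.7 and 92.7 CPM at 24-30hpi (log2 change −1.90, SE 0.20, adjusted p = 7.65e-10), and Zfp942 at 108, 91.6 and 89.3 CPM, against 234, 281 and 256 CPM (log2 change −1.42, SE 0.19, adjusted p = 2.00e-07). Zfp979 fell by 1.05 (SE 0.13, adjusted p = 5.63e-08) and Zfp944 by 1.37 (SE 0.20, adjusted p = 6.48e-07).

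**Figure D3:**
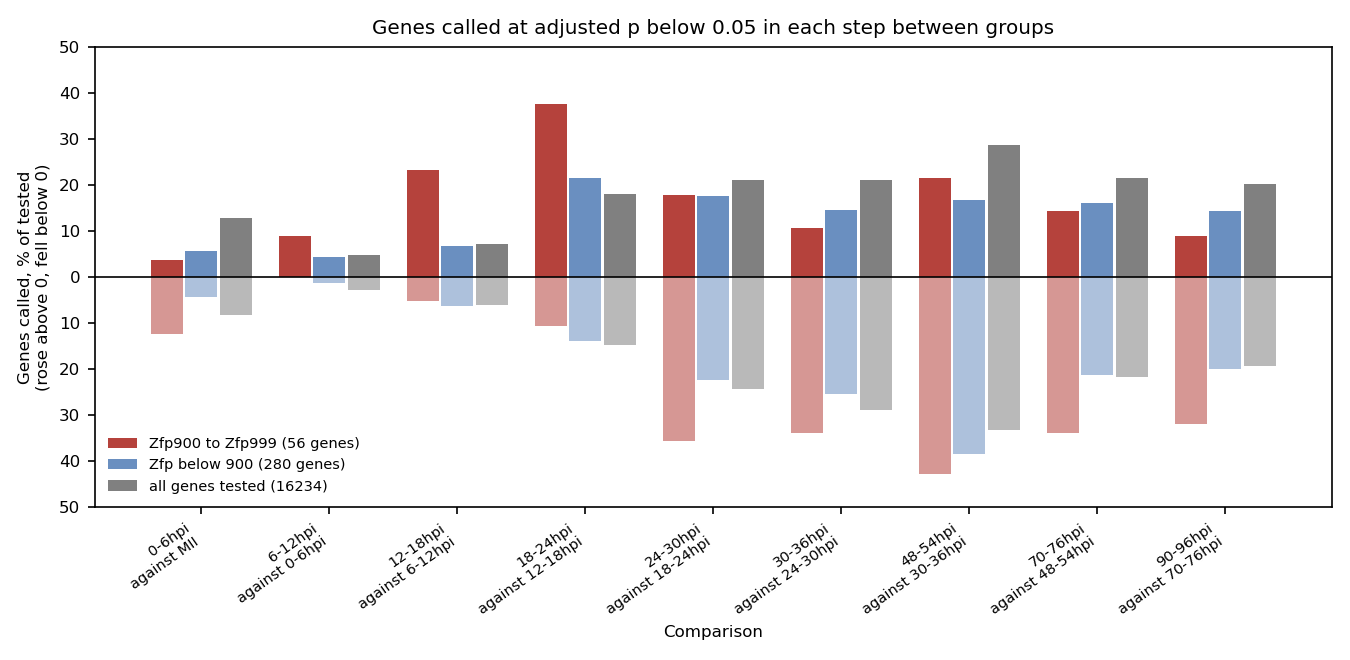
Percent of tested genes that rose (bars above 0) and that fell (bars below 0) at an adjusted p below 0.05 in each of the 9 steps, for the 56 members, 280 Zfp genes numbered below 900 and all 16234 tested genes. The members' risers reach 37.5% at 18-24hpi, and their fallers lie between 32.1% and 42.9% in each of the last 5 steps.

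At 48-54hpi, relative to 30-36hpi, 12 members rose and 24 fell (64.3%, against 62% of all tested genes), a share near that of all genes. Risers were 21.4% of the members, against 28.7% of all tested genes, and fallers 42.9%, against 33.3%. Zfp960 on chromosome 17 rose to 172, 216 and 176 CPM at 48-54hpi, against 41.6, 39.1 and 59.2 CPM at 30-36hpi (log2 change 2.01, SE 0.20, adjusted p = 1.06e-10). Zfp947 rose to 121, 120.5 and 87.5 CPM, against 17.7, 16.0 and 9.20 CPM (log2 change 2.93, SE 0.35, adjusted p = 7.84e-09). Zfp985 rose to 91.5, 121 and 108 CPM, against 22.7, 33.9 and 22.2 CPM (log2 change 2.02, SE 0.21, adjusted p = 3.63e-10), and Zfp932 to 164, 169 and 156 CPM, against 46.3, 72.3 and 44.5 CPM (log2 change 1.58, SE 0.18, adjusted p = 1.10e-09). Zfp982 fell by 3.77 on the log2 scale (SE 0.20, adjusted p = 1.09e-17), or 13.6-fold. Zfp957 fell by 4.84 (SE 0.43, adjusted p = 5.56e-11), to 0.554 ± 0.342 CPM at 48-54hpi, against 16.1 ± 2.01 CPM at 30-36hpi. Zfp980 and Zfp942 fell by 1.24 (SE 0.15, adjusted p = 1.22e-08) and 1.57 (SE 0.20, adjusted p = 2.70e-08). Total counts moved the median log2 change of all genes to −0.66 in this step, against −0.19 with TMM.

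Zfp932 and Zfp960 each had a level at 48-54hpi that did not last. For Zfp932 it was not the only high window, since its 18-24hpi libraries, at 168, 162 and 154 CPM, overlapped those of 48-54hpi. At 70-76hpi, 8 members rose and 19 fell relative to 48-54hpi (48.2%, against 43.4% of all tested genes), and with total counts 14 rose and 17 fell. Risers were 14.3% of the members, against 21.6% of all tested genes, and fallers 33.9%, against 21.8%. Zfp960 fell to 46.1, 49.6 and 41.4 CPM at 70-76hpi, against 172, 216 and 176 CPM at 48-54hpi (log2 change −2.04, SE 0.20, adjusted p = 2.57e-10), and Zfp932 to 74.7, 55.1 and 48.7 CPM, against 164, 169 and 156 CPM (log2 change −1.45, SE 0.18, adjusted p = 1.70e-08). Zfp944 and Zfp936 fell by 2.00 (SE 0.22, adjusted p = 3.38e-09) and 1.16 (SE 0.14, adjusted p = 1.81e-08). Zfp990, a member of the chromosome 4 cluster, rose to 17.4, 32.8 and 28.5 CPM at 70-76hpi, against 1.498, 1.04 and 2.01 CPM at 48-54hpi (log2 change 4.11, SE 0.54, adjusted p = 9.36e-08). It had been under 4 CPM in every earlier library. Zfp931 rose to 9.51, 9.61 and 11.8 CPM, against 0, 3.02 and 1.45 CPM (log2 change 2.81, SE 0.43, adjusted p = 1.78e-06), after standing at 63.6, 58.2 and 63.9 CPM in MII oocytes. Zfp975 and Zfp994 rose by 2.24 (SE 0.39, adjusted p = 1.44e-05) and 2.74 (SE 0.53, adjusted p = 6.31e-05), both from means under 3 CPM.

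At 90-96hpi, 5 members rose and 18 fell relative to 70-76hpi (41.1%, against 39.6% of all tested genes). Fallers were 32.1% of the members, against 19.5% of all tested genes, and risers 8.93%, against 20.1%. Summed trophectoderm markers were at 5443 to 8836 CPM at 90-96hpi. Zfp960 fell again, to 10.6, 7.17 and 16.1 CPM, against 46.1, 49.6 and 41.4 CPM (log2 change −2.02, SE 0.22, adjusted p = 2.28e-09). Zfp985 fell to 65.4, 61.8 and 83.4 CPM, against 122, 190.4 and 163 CPM (log2 change −1.17, SE 0.21, adjusted p = 1.83e-05), and Zfp979 and Zfp951 fell by 0.79 (SE 0.14, adjusted p = 1.47e-05) and 0.95 (SE 0.17, adjusted p = 2.07e-05). Zfp949 rose to 42.0, 42.0 and 38.0 CPM, against 16.6, 22.8 and 17.4 CPM (log2 change 1.10, SE 0.29, adjusted p = 0.00251). Zfp950, Zfp933 and Zfp992 rose by 1.19 (SE 0.28, adjusted p = 0.000674), 1.65 (SE 0.53, adjusted p = 0.0125) and 0.72 (SE 0.26, adjusted p = 0.0260). The fifth riser, named after its values were seen, was Zfp991 (log2 change 0.99, SE 0.36, adjusted p = 0.0283).

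Members that lie together in the genome had like courses in the chromosome 8 cluster and mixed ones in the others. RefSeq places 14 members within 2.34 Mb of chromosome 4 (145510759 to 147849126), 10 within 1.30 Mb of chromosome 17 (21565816 to 22867309), 7 on chromosome 2 (175372034 to 178078425), 4 on chromosome 7 (42579397 to 43192109) and 3 on chromosome 8 (69209018 to 69749962). The summed level of the chromosome 4 members was 1601 CPM in the MII oocytes, 2421 CPM at 18-24hpi and 469 CPM at 90-96hpi, and 8 of the 14 had their highest mean between 18-24hpi and 30-36hpi. The 4 chromosome 7 members together were highest at 30-36hpi, at 431 CPM. All 3 chromosome 8 members had their highest mean before 18-24hpi. Only 3 of the 7 chromosome 2 members passed the filter, and their promoter windows included the closest copies, with 99.7% identity between Zfp968 and Zfp973 and 97.0% between Zfp965 and Zfp971. How reads shared by such near copies were counted is not given in the sources used here, and the split of counts between them is uncertain.

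Within the chromosome 4 cluster, some neighbours had opposed courses and others had like ones. Over the 10 group means, Zfp985 and its neighbour Zfp979 had r = −0.75, Zfp982 and Zfp985 had r = −0.80, Zfp990 and Zfp980 had r = −0.87, Zfp987 and Zfp992 had r = 0.91, and Zfp991 and Zfp988 had r = 0.90. The promoter windows of Zfp985 and Zfp979, printed above, were 82.3% identical. Zfp985 (147553277 to 147585201, plus strand) was at 122, 190.4 and 163 CPM at 70-76hpi, against 4.46, 5.06 and 3.20 CPM in MII oocytes. Zfp979 was at 116, 176 and 168 CPM at 70-76hpi. The 2 genes thus stood at overlapping levels at 70-76hpi, after lying far apart in MII oocytes. The median r over the 91 chromosome 4 pairs was 0.20, over the 36 chromosome 17 pairs 0.05, over the 6 chromosome 7 pairs 0.10, over the 3 chromosome 2 pairs −0.25 and over 1401 pairs in different places 0.04. The 3 chromosome 8 pairs were alike, with r between 0.83 and 0.85 and a median of 0.84. These correlations describe 10 groups and carry no test. Zfp993 overlaps 16 other annotated genes, Zfp981 among them, and Zfp978 overlaps 9, Zfp991 and Zfp988 among them. Zfp981 and Zfp980 overlap 3 each. Because the strand that was counted is not given in the sources used here, counts of these genes may include reads of their neighbours.

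**Figure D4:**
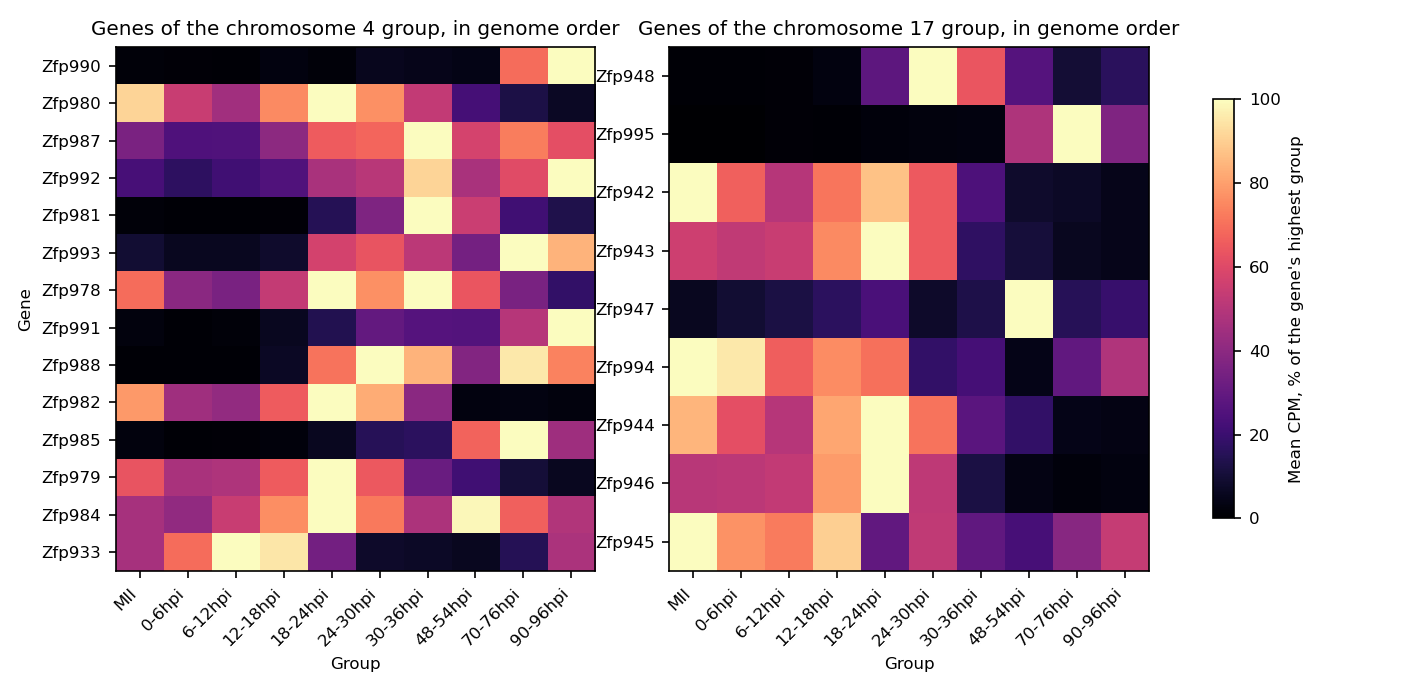
Level of each tested member of the chromosome 4 cluster (14 genes) and the chromosome 17 cluster (9 genes) in the 10 groups, as percent of the gene's highest group mean (colour), with genes in genome order down the page. Most neighbouring rows of the chromosome 4 panel differ in the column of their highest mean, such as Zfp979 at 18-24hpi beside Zfp985 at 70-76hpi. Zfp979 and Zfp984 share 18-24hpi, but the libraries of Zfp984 there overlap those at 48-54hpi.

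Zfp943 and its head-to-head neighbour Zfp942 shared the fall at 30-36hpi, and their courses correlated at r = 0.975. The course most like that of Zfp943 was that of Zfp946 (r = 0.99). Zfp946 was at 23.5, 13.1 and 13.0 CPM at 30-36hpi, against 147, 143 and 111 CPM at 18-24hpi. Zfp943 was at 115, 147 and 166 CPM at 18-24hpi. Both stood above all their MII libraries at 18-24hpi, where Zfp942 did not.

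Other genes of the KRAB zinc finger pathway were followed as a list of 24 tested genes, chosen with earlier results of these data known. Besides partners such as Trim28 and Setdb1, this co-repressor list holds DNA methylation genes such as Dnmt1 and Uhrf1, and the zinc finger genes Zfp57 and Zfp445. In time order, 3, 2, 0, 5, 4, 7, 6, 7 and 11 of the 24 rose over the 9 steps, and 3, 1, 3, 8, 11, 6, 11, 12 and 6 fell. Fallers were most frequent at 70-76hpi, at 12 of 24 (50.0%), where 21.8% of all tested genes fell, and risers at 90-96hpi, at 11 of 24 (45.8%), where 20.1% of all tested genes rose. At 18-24hpi, where 18.1% of all tested genes rose and 14.9% fell, 20.8% of the list rose and 33.3% fell. Their median log2 change was −0.37 at 24-30hpi, against −0.12 over all tested genes, and 0.29 at 90-96hpi, against 0.07. Trim28, the scaffold that KRAB domains bind, fell by 0.88 on the log2 scale at 0-6hpi (adjusted p = 1.25e-05). It rose to 145 ± 25.03 CPM at 30-36hpi, against 64.5 ± 8.27 CPM at 24-30hpi (adjusted p = 2.11e-08), and to 369 ± 15.5 CPM at 48-54hpi (adjusted p = 2.61e-10). Setdb1, the histone H3K9 methyltransferase of the complex, fell by 0.96 at 18-24hpi (adjusted p = 7.60e-07) and by 1.17 at 24-30hpi (adjusted p = 2.03e-08). Zfp57, a KRAB zinc finger gene that protects imprints, rose by 1.33 at 0-6hpi (adjusted p = 3.77e-06), fell by 1.51 at 18-24hpi (adjusted p = 1.67e-07) and fell by 2.86 at 48-54hpi (adjusted p = 3.85e-13). Hdac1, a histone deacetylase, rose by 3.27 at 18-24hpi (adjusted p = 5.24e-12).

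Klf17 encodes a zinc finger transcription factor of the KLF family. Its own counts did not separate the genotype labels. Klf17 was at 673, 603 and 728 CPM in the libraries labelled KO, 359, 845 and 794 CPM in mKO, 812 and 1015 CPM in pKO, and 596, 805 and 746 CPM in ctrl. The log2 change was −0.10 in KO against ctrl (SE 0.30, adjusted p = 0.869), −0.10 in mKO against ctrl (SE 0.30, adjusted p = 0.954) and 0.35 in pKO against ctrl (SE 0.33, adjusted p = 1). Which part of the gene was deleted is not given in the sources used here, so reads of a remaining transcript may be counted, and the groups are called by their labels below.

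In the libraries labelled KO, 2 members rose and 2 fell relative to ctrl, which is 4 of 57 tested members (7.02%), a share near the 8.13% of all 16694 tested genes that were called. Of all tested genes 1.82% rose and 6.31% fell. Zfp977 was at 3.35, 0.878 and 3.33 CPM in KO, 4.54, 19.9 and 8.88 CPM in mKO, 46.0 and 27.5 CPM in pKO, and 28.8, 27.3 and 27.2 CPM in ctrl. The KO libraries all lay below the ctrl libraries, which lay within 2 CPM of each other (log2 change −3.45 in KO against ctrl, SE 0.58, adjusted p = 0.00661), a 10.96-fold lower mean. Zfp981 was at 38.9, 73.8 and 31.4 CPM in KO, 64.1, 86.2 and 69.1 CPM in mKO, 296 and 157 CPM in pKO, and 151, 104 and 130.5 CPM in ctrl (log2 change −1.42 in KO against ctrl, SE 0.35, adjusted p = 0.0227). Zfp932 was at 167, 189 and 152 CPM in KO, 134, 67.5 and 61.1 CPM in mKO, 67.0 and 54.3 CPM in pKO, and 70.3, 52.8 and 55.6 CPM in ctrl (log2 change 1.51 in KO against ctrl, SE 0.32, adjusted p = 0.0137). In mKO, replicate 1 lay above all ctrl libraries and replicates 2 and 3 lay among them. Zfp963 (chromosome 8, 69741639 to 69749962, minus strand) was at 33.6, 26.5 and 10.7 CPM in KO, 25.3, 15.4 and 16.7 CPM in mKO, 13.0 and 6.72 CPM in pKO, and 4.56, 9.14 and 5.98 CPM in ctrl (log2 change 1.84 in KO against ctrl, SE 0.48, adjusted p = 0.0295). The members' median log2 change was 0.02 in KO against ctrl, against 0.05 over all genes, and 29 of 57 were positive.

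With 3 libraries a group, these 4 calls rest on single libraries to differing degrees. The count was 2 without KO replicate 1, 0 without KO replicate 2, 4 without KO replicate 3, 3 without ctrl replicate 1, 1 without ctrl replicate 2 and 1 without ctrl replicate 3. Calls over all tested genes fell as well, from 1358 to 269, 0, 586, 892, 270 and 188 in that order. Zfp977 was called in all of these fits but the one without KO replicate 2. Zfp932 was called without KO replicate 1, without KO replicate 3 and without ctrl replicate 1, Zfp963 without KO replicate 3 alone, and Zfp981 in none of them. With DESeq2 8 members were called, and 2583 of all tested genes. Zfp936, the close promoter copy of Zfp977, was at 275, 379 and 237 CPM in KO and 488, 358 and 370 CPM in ctrl, and those libraries overlapped.

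Several other measures differed between the libraries labelled KO and ctrl, and others overlapped. The KO libraries held 14080264 to 15631152 reads, against 17858094 to 19876670 in ctrl, and mitochondrial genes took 5.92% to 11.4% of their reads, against 3.23% to 4.18% in ctrl. All 8 oocyte markers were detected, with a sum of 2826 to 3398 CPM in KO, against 1622 to 2282 CPM in ctrl. The sum of 4 inner cell mass markers was 24.8 to 53.8 CPM in KO, against 12.7 to 16.7 CPM in ctrl. Cumulus cell markers summed to 21.0 to 43.7 CPM in KO, against 60.6 to 82.3 CPM in ctrl. Sums of the 6 genes known for the 2-cell stage overlapped, at 1030 to 1148 CPM in KO and 739 to 1045 CPM in ctrl. Those of trophectoderm markers overlapped too, at 56.1 to 114 CPM in KO and 75.6 to 81.5 CPM in ctrl. The part of these measures in the results was not tested.

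**Figure D5:**
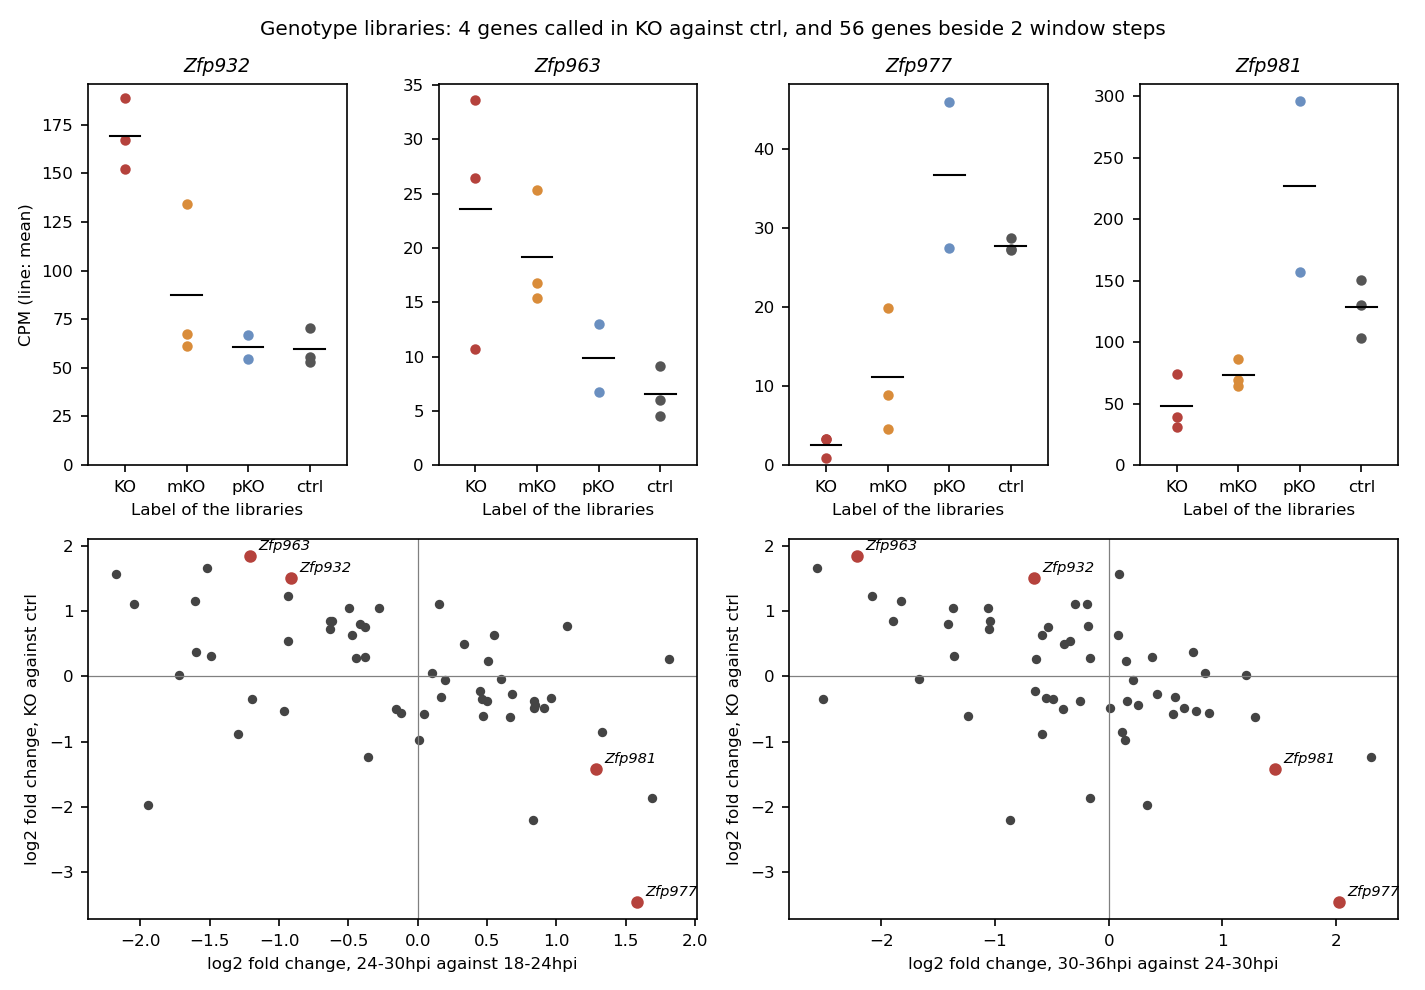
Top, CPM of Zfp932, Zfp963, Zfp977 and Zfp981 in each genotype library (points) with the group mean (line), for KO, mKO, pKO and ctrl. Bottom, the log2 change of KO against ctrl for 56 members plotted against their log2 change in the 24-30hpi and the 30-36hpi step of the windows. In the top panels Zfp977 and Zfp981 have their lowest group mean in KO. In the bottom panels members that fell in a step tend to lie above 0 on the KO axis.

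Relative to pKO, 3 members rose and 2 fell in KO (8.77%, against 12.5% of all tested genes, of which 2.83% rose and 9.67% fell). Zfp977 averaged 2.52 ± 1.42 CPM in KO (SD, n = 3) and 36.7 ± 13.1 CPM in pKO (SD, n = 2; log2 change −3.86, SE 0.61, adjusted p = 0.00364 by edgeR). Zfp981 averaged 48.0 ± 22.6 CPM in KO and 227 ± 98.3 CPM in pKO (log2 change −2.24, SE 0.38, adjusted p = 0.00415). Zfp932 rose by 1.48 (SE 0.37, adjusted p = 0.0169). Zfp957 was at 29.2, 25.1 and 34.3 CPM in KO, against 14.2 and 5.42 CPM in pKO (log2 change 1.59, SE 0.48, adjusted p = 0.0384). The fifth, Zfp937, had 1, 11 and 56 reads in KO and 0 reads in both pKO libraries (adjusted p = 0.0302), so no fold is given, and it was named after its values were seen. In ctrl Zfp937 had 17, 43 and 20 reads, and in mKO 23, 160 and 22. Without 1 library the count was 2 to 4, and Zfp977 and Zfp981 fell each time. It was 2 without pKO replicate 2 and 3 without KO replicate 2, KO replicate 3 or pKO replicate 1. Calls over all tested genes fell from 2087 to 582 without pKO replicate 2, and to 500, 954 and 1180 in those other fits.

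No member was called in the other 4 comparisons, in which edgeR called 0% of all tested genes. At an unadjusted p below 0.05, 8 of the 57 members differed in mKO against ctrl, 3 in pKO against ctrl, 5 in KO against mKO and 9 in mKO against pKO. In the same order, 1243, 476, 2220 and 1919 of all 16694 tested genes did. DESeq2 called 1, 0, 1 and 3 members in these comparisons, with Zfp974 lower in mKO than in ctrl and Zfp977 lower in KO than in mKO. Over all tested genes it called 32, 2, 336 and 130. Replicate 1 of mKO stood apart in the members, with Zfp982 at 356 CPM in that library and at 65.5 and 66.7 CPM in the other 2. Without it, 5 members were called in KO against mKO, with Zfp932, Zfp942 and Zfp982 higher and Zfp954 and Zfp977 lower in KO, and without mKO replicate 2, Zfp936, Zfp977 and Zfp981 were lower in mKO than in pKO. Over all tested genes, these comparisons called 1044 and 483. An effect called in KO and not in mKO is not thereby shown to differ between them, and the comparison of KO with mKO above is the test of that difference.

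Set beside the window steps, members that rose at 24-30hpi or 30-36hpi were mostly lower in KO than in ctrl, and members that fell were mostly higher. Of the 10 members that rose at 24-30hpi, 8 were lower in KO, with a median log2 change of −0.48, against −0.79 for the risers among all genes, and of the 20 that fell, 17 were higher, with a median of 0.80, against 0.36. Of the 6 that rose at 30-36hpi, 5 were lower in KO, with a median of −0.93, against −0.92 for the risers among all genes, and of the 19 that fell, 15 were higher, with a median of 0.80, against 0.58. Over the 56 members the correlation of the KO difference with the 24-30hpi step was r = −0.49 and with the 30-36hpi step r = −0.56. The same correlations over all 15388 genes tested in both experiments were −0.33 and −0.49. The members' values therefore follow a relation found across all genes, described here with no test because the points share libraries. Zfp979 was at 1279, 1157 and 683 CPM in KO, 1187, 571 and 464 CPM in mKO, 810.0 and 489 CPM in pKO, and 729, 527 and 472 CPM in ctrl. Zfp944 was at 229, 262 and 137 CPM in KO and 120.2, 95.3 and 90.6 CPM in ctrl (adjusted p = 0.0637), and Zfp946 at 92.7, 141 and 77.5 CPM in KO and 60.6, 34.6 and 38.6 CPM in ctrl (adjusted p = 0.0816). Neither gene passed the test, and both were named after their values were seen. The DESeq2 test, no filter, the replicate block and the 2 groups alone each called both, and called more of all tested genes too. With DESeq2 size factors neither was called. In mKO against ctrl the correlations with the 24-30hpi and 30-36hpi steps were −0.15 and −0.35 over the members, and −0.15 and −0.30 over all genes. Of the members that rose in these steps, 9 of the 10 and 6 of the 6 were lower in mKO. Their median log2 changes were −0.83 and −0.82, against −0.31 and −0.41 for the risers among all genes. In pKO against ctrl the correlations were 0.35 and 0.06 over the members, and 0.17 and 0.15 over all genes. The 3 comparisons with ctrl share its libraries.

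Among the co-repressor genes, 0 of 24 rose and 1 fell in KO against ctrl. The faller is 4.17% of the list, against 6.31% of all tested genes, of which 1.82% rose. Hdac1 was at 160 ± 12.9 CPM in KO and 335 ± 54.6 CPM in ctrl (SD, n = 3 each; log2 change −1.06, SE 0.30, adjusted p = 0.0411 by edgeR). In KO against pKO 2 fell (8.33% of the list, against 9.67% of all tested genes), so neither comparison had a larger share of fallers in the list. The 2 were Morc3, a chromatin ATPase, at 53.0 ± 8.21 CPM in KO and 149 ± 41.4 CPM in pKO (log2 change −1.49, SE 0.31, adjusted p = 0.00808 by edgeR), and Trim28, at 86.3 ± 22.5 CPM in KO and 214 ± 39.4 CPM in pKO (log2 change −1.31, SE 0.34, adjusted p = 0.0209).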

How the data were processed

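RNA of 41 SLAM-seq libraries was analysed, 30 of MII oocytes and labelling windows and 11 of Klf17 genotypes. The 14 chromatin accessibility and 6 embryo-number libraries were not used here. Each deposited table gives a read count for every gene and library, per the file headers. In the 90-96hpi replicate 3 column the deposited values were rounded, in the way expected counts are, because a damaged last record (gene Nyx, left out) holds a fraction. Its other values are whole. The submitters' processing notes name Trim Galore 0.6.10, STAR 2.7.10a, SAMtools 1.12 and the build mm10. The counter, the strand, the treatment of reads with several matches and the use of T-to-C conversions are not given in the sources used here.

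Each experiment was fitted whole with edgeR 4.0.16 in R 4.3.3: filterByExpr (minimum count 10, minimum total 15), TMM factors, and the robust quasi-likelihood F-test, two-sided, with Benjamini-Hochberg adjustment over all tested genes, a threshold of 0.05 and no fold minimum. The SE is the size of the log2 fold change divided by the square root of F, and CPM uses TMM-scaled totals. RefSeq GRCm38.p6 tables gave positions and promoters, and 58 of the 60 symbols matched. Depths of 7395193 to 23018252 reads per library set the counting precision, which covers counting error only.

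Named genes were Klf17, the 8 members with the highest mean over the windows, up to 4 called members per direction in each step and up to 8 in KO against ctrl by smallest adjusted p, each at 5 CPM or more in the mean of its higher group, and called co-repressor genes. The members and lists were chosen with earlier results of these data known. Alternatives were DESeq2 1.42.0 size factors, total counts, the DESeq2 test, no filter, a replicate block, the 2 groups alone, and each library left out in turn. Scripts were tested on simulated data.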

Additional observations from a re-analysis of the deposited data

How the results depend on the processing

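Of 72 named results of members, 56 kept their call under every alternative and 16 lost it under at least 1. Calls of single co-repressor genes were not followed under the alternatives. That of Hdac1 in KO against ctrl was lost without KO replicate 2, where 0 of all tested genes were called. The 16 were Zfp951 and Zfp931 at 0-6hpi (highest adjusted p 0.263 and 0.0543), Zfp930, Zfp932 and Zfp958 at 6-12hpi (0.301, 0.324 and 0.211), Zfp936, Zfp959 and Zfp982 at 12-18hpi (0.105, 0.0587 and 0.181), Zfp933 and Zfp992 at 90-96hpi (0.0665 and 0.121), Zfp932, Zfp963, Zfp977 and Zfp981 in KO against ctrl (0.0700, 0.116, 0.0588 and 0.0930), and Zfp932 and Zfp957 in KO against pKO (0.136 and 0.309). Member counts moved as follows. At 6-12hpi DESeq2 called 8 and the 2 groups alone 18, against 5. In KO against ctrl DESeq2 called 8, no filter 8, the replicate block 7 and the 2 groups alone 10, against 4. In KO against pKO DESeq2 called 9, no filter 9 and the replicate block 10, against 5. In mKO against ctrl and in KO against mKO DESeq2 and no filter each called 1, and in mKO against pKO they called 3 and 4, against 0. Calls over all tested genes moved too, from 1243 to 1751 with DESeq2 and 3577 with the 2 groups alone at 6-12hpi. In KO against ctrl they were 2583, 2237, 2064 and 3166 in the order above, against 1358. In KO against pKO they were 3521, 2907 and 2695, against 2087. The cause was not tested. With 1 library left out, counts ranged over 6 to 9 at 0-6hpi, 1 to 2 at 6-12hpi, 5 to 12 at 12-18hpi, 24 to 25 at 18-24hpi, 21 to 30 at 24-30hpi, 21 to 26 at 30-36hpi, 33 to 35 at 48-54hpi, 24 to 29 at 70-76hpi, 17 to 23 at 90-96hpi, 56 to 57 for any difference, 0 to 4 in KO against ctrl, 0 to 0 in mKO and in pKO against ctrl, 0 to 5 in KO against mKO, 2 to 4 in KO against pKO and 0 to 3 in mKO against pKO. Klf17 reversed its sign without KO replicate 2 (0.0012 in KO against ctrl, range −0.21 to 0.0012) and without mKO replicate 1 (0.26 in mKO against ctrl, range −0.31 to 0.26), with adjusted p of 0.999 and 0.920. Replicate numbers were not taken to pair the libraries, since the labels tie them to nothing shared and deviations of same-numbered libraries correlated at −0.072 to 0.164 in the windows and −0.050 to 0.322 in the genotypes. In the genotypes the median was 0.086, against −0.047 between other numbers, and 9 of 11 libraries were most like their own number (14 of 30 in the windows), a hint of partial pairing from the data and not the design. Total count scaling moved the median log2 fold change of all genes to 0.19 at 0-6hpi, 0.12 at 18-24hpi, 0.28 at 24-30hpi, −0.66 at 48-54hpi, 0.20 at 70-76hpi, 0.17 at 90-96hpi, 0.20 in KO against pKO and 0.16 in mKO against pKO. The 5 rows with 1 to 96 reads were too shallow to test.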

Other observations

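The 2 rows listed as Zfp935 had courses over the 10 window groups that correlated at r = 0.995, and both identifiers match 1 RefSeq gene. Zfp995 was close to the floor until 30-36hpi, at 18.8, 23.4 and 21.7 CPM at 48-54hpi, at 48.1, 42.3 and 42.2 CPM at 70-76hpi, and at 11.3, 19.2 and 18.2 CPM at 90-96hpi. Zfp974 was at 15.1, 23.9 and 24.9 CPM at 30-36hpi, 21.4, 29.8 and 33.3 CPM at 48-54hpi, and 1.71, 0.373 and 2.54 CPM at 70-76hpi. Zfp954 was at 63.1, 38.3 and 28.5 CPM at 18-24hpi, against 3.61, 7.28 and 6.00 CPM at 12-18hpi. Zfp963 was at 3.12, 3.25 and 1.05 CPM at 30-36hpi, against 66.1, 59.1 and 61.5 CPM at 6-12hpi, its highest window. These genes were chosen after their values were seen.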
